A study of Mus musculus with 11 samples.

Results

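Epithelia of the female reproductive tract release proteins that bind, starve or tag microbes, and 10 genes for such proteins were followed here through oviduct, ovarian surface epithelium (OSE), organoids and tumors. The 10 genes, of 18305 in the table of counts, were *Ltf*, *Lcn2*, *Lbp*, *Pglyrp1*, *Sftpd*, *Wfdc18*, *Slpi*, *C3*, *Cfi* and *Pigr*. They were chosen by name, partly on their levels in OSE organoids and OSE tissue, since several were higher in the organoids. For that reason the levels in OSE libraries are described without a test, and tests were kept to comparisons that use no OSE library.

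The study asked how organoids from mouse oviduct and OSE, the candidate origins of high-grade serous ovarian cancer, relate to their tissues and to tumors grown from them. RNA of 27 libraries was counted. Wild-type C57BL/6 mice gave bulk oviduct tissue (n = 3), bulk OSE tissue (n = 3), oviductal organoids (n = 3) and OSE organoids (n = 2), the last without a line that the authors excluded as contaminated. Cas9-GFP organoids (n = 3) were unedited oviductal organoids from mice of the B6J.129(B6N) background that carry the allele tm1(CAG-cas9\*,-EGFP)Fezh at the Gt(ROSA)26Sor locus and express Cas9 and EGFP in all tissues under the CAG promoter. TBP clones (n = 3) were single picked oviductal Cas9-GFP organoids with sgRNA-induced mutations, among them in *Trp53* and *Brca1*, grown out under Nutlin-3a, which selects against intact p53. TBP tumors (n = 6) grew from such clones under the skin of NSG mice, which lack lymphocytes but keep myeloid and stromal cells, so that a tumor library also holds host RNA. Organoid lines from tumors were mes-like (T1-mes and T3-mes), a form in which epithelium is mixed with mesenchymal-like cells, or epi-like (T2-epi and T4-epi), and were kept under Nutlin-3a. T1-mes and T2-epi came from adjacent tumors of the same clone in a mouse, and the paper traces T3-mes and T4-epi to the same original clone as well. Donor mice were 8 to 12 weeks old, and each organoid line pooled tissue of at least 6 mice. Per the paper, oviductal and OSE organoids were grown in medium with added WNT and estrogen unless stated otherwise.

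The genes cover several arms of mucosal defence. Lactoferrin (*Ltf*) binds iron and lipocalin 2 (*Lcn2*) captures the iron carriers of bacteria, so that both withhold iron from microbes. LPS-binding protein (*Lbp*), peptidoglycan recognition protein 1 (*Pglyrp1*) and surfactant protein D (*Sftpd*) recognise microbial surfaces. *Slpi* encodes an inhibitor of secreted proteases, and *Wfdc18* a small secreted protein with the same kind of disulfide core. Complement component 3 (*C3*) is the central protein of the complement cascade, and complement factor I (*Cfi*) cuts its active form. The polymeric immunoglobulin receptor (*Pigr*) carries dimeric IgA across the epithelium and sheds its outer part into the lumen. In the female tract several of these genes are known to respond to estrogen, and others to inflammatory signals through NF-kB and C/EBP factors. *Ltf*, *Lcn2* and *Pglyrp1* are also packed into granules of neutrophils, which makes neutrophil markers a needed control in whole tissue.

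The genes lie apart from each other on GRCm38, by the spans that GENCODE gives. *Ltf* is at chr9:111019271-111042767 and *Lcn2* at chr2:32384633-32388252. *Lbp* (chr2:158306493-158332852) and *Slpi* (chr2:164354070-164389095) lie on the same chromosome as *Lcn2* without sharing bases. *Pglyrp1* spans chr7:18871331-18890459, *Sftpd* chr14:41172214-41185149 and *Wfdc18* chr11:83709015-83711348. *C3* spans chr17:57203970-57228136, *Cfi* chr3:129835884-129875332 and *Pigr* chr1:130826684-130852249. All are annotated as protein-coding genes. *Slpi* and *C3* each contain a microRNA gene on the same strand, *Mir7678* and *Mir6978*, and no annotated gene overlaps any of the others.

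The stretch before the start of transcription was read from RefSeq on GRCm38.p6, as the 250 bases upstream of the start annotated there. It was read for the 7 members with an entry there (*Pigr*, *Lcn2*, *Slpi*, *Pglyrp1*, *Ltf*, *Wfdc18* and *C3*). These starts can differ from the GENCODE spans above. The windows of *Lcn2*, *Slpi* and *Pglyrp1* lie within those spans, and that of *Ltf* reaches into its span. Of the promoters that hold a searched motif, those of *Ltf*, *Lcn2*, *C3*, *Pglyrp1* and *Wfdc18* are shown, in the 5′ to 3′ direction of the gene, with the match in capitals. *Slpi* also holds a match and is not shown. In *Ltf*, *Lcn2* and *C3* the capitals mark the C/EBP core TTGCNNAA in either direction. In *Pglyrp1* they mark a match to the NF-kB consensus, and in *Wfdc18* the TATA box TATAAA.
*Ltf*, chr9:111019042-111019291, plus strand: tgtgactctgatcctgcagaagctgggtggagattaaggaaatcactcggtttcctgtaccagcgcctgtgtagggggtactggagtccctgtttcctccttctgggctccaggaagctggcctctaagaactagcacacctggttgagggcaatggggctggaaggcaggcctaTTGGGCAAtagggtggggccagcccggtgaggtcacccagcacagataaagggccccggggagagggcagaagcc
*Lcn2*, chr2:32387740-32387989, minus strand: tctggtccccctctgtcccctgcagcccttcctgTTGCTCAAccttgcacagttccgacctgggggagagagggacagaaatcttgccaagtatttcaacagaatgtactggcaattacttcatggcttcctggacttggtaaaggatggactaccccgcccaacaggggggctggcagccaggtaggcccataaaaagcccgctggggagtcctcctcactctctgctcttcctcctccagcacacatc
*C3*, chr17:57228137-57228386, minus strand: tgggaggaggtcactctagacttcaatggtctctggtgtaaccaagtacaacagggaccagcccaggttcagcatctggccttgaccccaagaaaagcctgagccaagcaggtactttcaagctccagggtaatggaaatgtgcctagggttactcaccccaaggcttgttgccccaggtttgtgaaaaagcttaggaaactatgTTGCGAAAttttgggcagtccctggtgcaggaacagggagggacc
*Pglyrp1*, chr7:18884440-18884689, plus strand: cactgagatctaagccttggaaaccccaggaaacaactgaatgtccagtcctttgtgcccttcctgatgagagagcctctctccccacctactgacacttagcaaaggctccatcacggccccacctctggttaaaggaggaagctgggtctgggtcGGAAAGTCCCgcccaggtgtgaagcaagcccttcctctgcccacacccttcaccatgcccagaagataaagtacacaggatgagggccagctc
*Wfdc18*, chr11:83708754-83709003, plus strand: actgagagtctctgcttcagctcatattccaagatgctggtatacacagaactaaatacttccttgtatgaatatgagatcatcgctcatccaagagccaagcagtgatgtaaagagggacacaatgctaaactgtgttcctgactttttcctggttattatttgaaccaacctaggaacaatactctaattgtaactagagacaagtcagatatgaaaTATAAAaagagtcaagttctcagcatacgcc
The C/EBP core was found in 4 of the 7 member promoters (*Slpi* is the fourth) and in 9.56% of 32851 mouse promoters of the same length. In *C3* it lay 45 to 38 bases and in *Ltf* 75 to 68 bases before the start, in *Lcn2* 216 to 209 bases before it. The NF-kB consensus was matched in 1 of the 7 (*Pglyrp1*, 93 to 84 bases before the start) and in 7.25% of all promoters. TATAAA was matched in 1 (*Wfdc18*, 31 to 26 bases before the start) and in 12.4% of all promoters. The STAT palindrome TTCNNNGAA (7.02% of all promoters) and the full palindrome of the estrogen response element (0.0639%) were in none of the 7 windows. Both strands were searched, no match overlapped another, and these matches describe letters in a short window, not binding.

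Total counts were 600579 to 4531767 in all libraries but TBP clone 1, which had 82239. CPM are counts scaled to a common library size with TMM factors over all libraries, and 3 counts, the most that a count of 0 allows, stood for 0.684 to 5.18 CPM, but for 33.5 CPM in TBP clone 1. Limits of this kind cover counting error only. *Trp53*, a targeted gene, was at 34.5 to 61.0 CPM in Cas9-GFP organoids and at 0, 0.536 and 5.02 CPM in TBP clones 1, 2 and 3. *Ovgp1*, the oviduct-specific glycoprotein of secretory cells, was at 72757 to 114196 CPM in oviduct tissue and 14636 to 22938 CPM in C57BL/6 oviductal organoids, but at 66.3 to 95.0 CPM in the Cas9-GFP organoids. The same gene was at 19.1 CPM in OSE organoids 1 and at 3243 CPM in OSE organoids 2, so that the second line went against its label by this marker. Of 7 oviduct secretory and ciliated markers, however, 3 had counts in each OSE line, against 6 or 7 in the C57BL/6 oviductal organoids. Of 8 OSE and mesothelium markers, 5 had counts in each OSE line, with sums of 2292 and 562 CPM. In the C57BL/6 oviductal organoids 2 or 3 of them had counts, with sums of 392 to 455 CPM. Each OSE line is given on its own. The OSE tissue held RNA of the ovary below the surface, with 9889 to 11730 CPM for the 10 of 11 granulosa, steroidogenic and oocyte markers in the table (at most 283 CPM in any other group). In all of these bulk libraries, fewer cells of a type and less RNA per cell cannot be told apart.

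Across the 9 groups, the members followed several patterns, as the plot of levels by library shows. *Ltf* and *Sftpd* were highest in the 3 sets of normal organoids, where *Ltf* had mean levels of 4646 CPM (oviductal), 4457 CPM (OSE, from lines at 7061 and 1853 CPM) and 3860 CPM (Cas9-GFP) and *Sftpd* 1112, 1076 and 830 CPM. The ranges of neighbours in this order overlapped, and the TBP clones came next (*Ltf* 1417 CPM and *Sftpd* 349 CPM), with ranges apart from those of the Cas9-GFP lines. *Lcn2* was highest in Cas9-GFP organoids (10608 CPM), and its ranges overlapped between neighbours all the way down to oviduct tissue (791 CPM). *Pglyrp1*, in contrast, was highest in TBP clones (856 ± 860 CPM, SD, n = 3) and lowest, after OSE tissue, in TBP tumors (26.6 CPM).

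*Wfdc18* was abundant only in oviduct tissue (1939 CPM) and C57BL/6 oviductal organoids (1291 CPM), with mean levels of 1.94 to 73.1 CPM in the other 7 groups. *Slpi* had an order of its own. It was highest in the mes organoids (71.6 CPM), followed by TBP tumors (15.4 CPM) and oviduct tissue (14.7 CPM), and lowest in the oviductal organoids, TBP clones and OSE organoids (0.507 to 0.942 CPM). *C3* and *Cfi* ended the order together in OSE tissue but not at the top, which was Cas9-GFP organoids for *C3* (5375 CPM) and C57BL/6 oviductal organoids for *Cfi* (107 CPM). *Pigr* was near or below the limit of 3 counts in oviduct tissue, OSE tissue and C57BL/6 oviductal organoids, with mean levels of 5.06, 0 and 3.21 CPM, and had mean levels of 113 to 658 CPM in every other group, the highest of them that of OSE organoids, which rests on OSE organoids 1. OSE tissue had the lowest mean for 9 of the 10 genes, *Slpi* being the exception, and its range overlapped that of the group above it for *Pglyrp1*, *Wfdc18*, *C3* and *Pigr*.

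**Figure D1:**
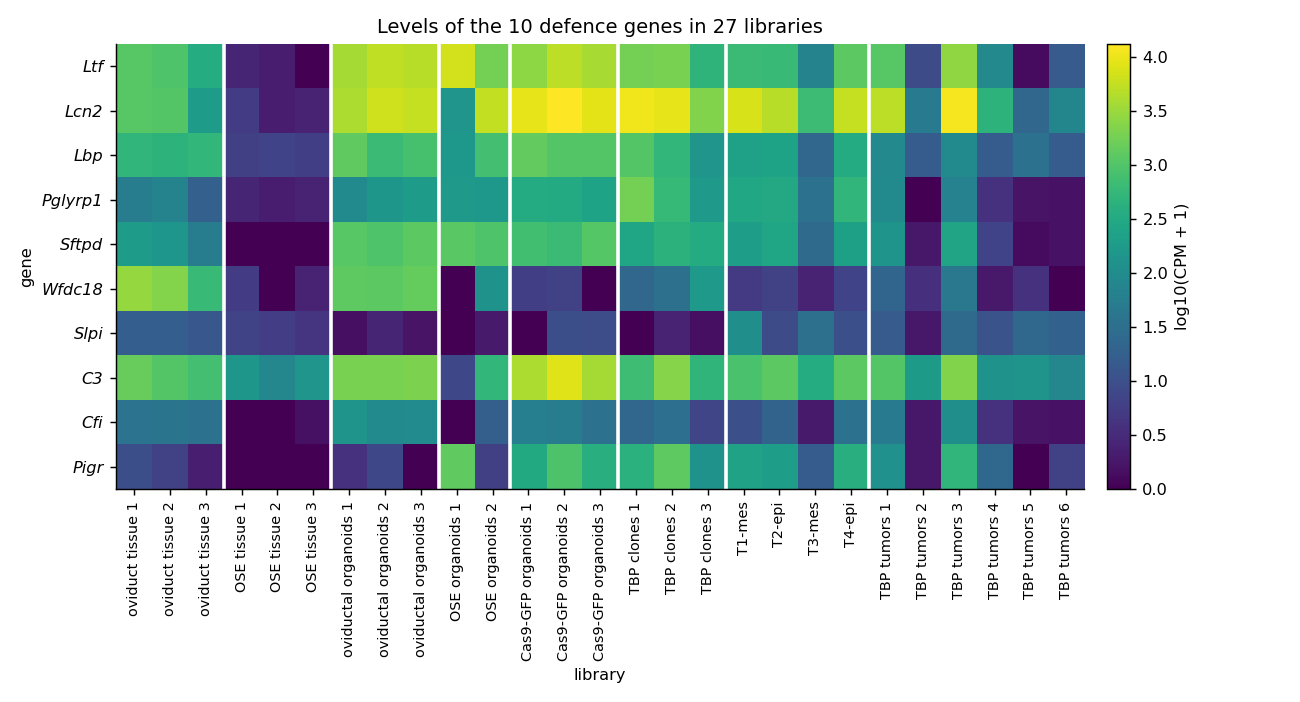
Levels of the 10 genes as log10(CPM + 1), with a row per gene, a column per library and white lines between groups (the 4 tumor-derived organoid lines form a single block). *Wfdc18* is bright only in oviduct tissue and C57BL/6 oviductal organoids, *Pigr* changes between lines of the same tissue, and tumors 1 and 3 stand out among the 6 tumors.

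The levels in OSE libraries, which chose the members, were as follows. *Sftpd* had no count in any of the 3 OSE tissues and 1173 and 979 CPM in OSE organoids 1 and 2, at least 423-fold higher. *Ltf* had 0 to 2 counts in each OSE tissue against 7061 and 1853 CPM in the organoids, at least 1754-fold higher, and *Pglyrp1* had 1 to 3 counts against 167 and 155 CPM, at least 63.4-fold higher. Between the OSE lines these genes differed by a factor of 1.20 for *Sftpd*, 1.08 for *Pglyrp1* and 3.81 for *Ltf*. The bounds compare the group mean with the level that 3 counts per library would give, and came to 462-fold for *Sftpd*, 2779-fold for *Ltf* and 65.8-fold for *Pglyrp1* without OSE organoids 2.

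The other members differed more between the OSE lines. *Lcn2* was at 140 CPM in OSE organoids 1 and at 5529 CPM in OSE organoids 2, against 1.16 to 4.23 CPM in OSE tissue. Its fitted log2 fold change over OSE tissue was 10.25 and came to 5.88 without OSE organoids 2. *Lbp* was at 160 and 786 CPM in the lines and 4.78 to 5.82 CPM in tissue, a log2 fold change of 6.54 that came to 4.95 without the second line.

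*C3* was at 6.87 CPM in OSE organoids 1, below the 81.5 to 154 CPM of OSE tissue, and at 543 CPM in OSE organoids 2, above it. Its log2 fold change was therefore 1.19 with both lines and -4.18 without OSE organoids 2. *Cfi* and *Wfdc18* had no count in OSE organoids 1 and 16.7 and 124 CPM in OSE organoids 2. *Pigr* went the other way, with 1718 counts (1311 CPM) in OSE organoids 1 and 10 counts (5.07 CPM) in OSE organoids 2, a ratio of 259. OSE organoids 2, the line with *Ovgp1*, thus had low *Pigr* and detectable *Wfdc18*, as the C57BL/6 oviductal organoids did, while OSE organoids 1 had the reverse. Of the 10 members, *Slpi*, *Wfdc18*, *Cfi* and *Pigr* did not pass the filter on low counts in this contrast. Neutrophil marker sums were 6.90 to 15.2 CPM in OSE tissue and 7.60 and 8.40 CPM in the organoids. *Camp*, *Ngp* and *Csf3r* were at 0 in both, and *Cxcr2* was at 0.531 to 1.69 CPM in tissue and 6.87 and 5.07 CPM in organoids. The 9 epithelial markers summed to 451 to 542 CPM in tissue and to 8829 and 10550 CPM in organoids.

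Oviductal organoids were then compared with the oviduct tissue of the same strain, a contrast that holds no OSE library. It asks how culture of the epithelium differs from the whole organ. The members were chosen partly on the same kind of contrast in OSE, so the number called here is not independent of that choice. Of the 9 members that passed edgeR's filter on low counts, 7 were higher in organoids and 1 was lower, where 18.7% of the 9477 genes tested were called higher and 24.2% lower. The iron-withholding genes and *Sftpd* had the largest rises. *Ltf* was at 1151, 975 and 361 CPM in the 3 tissues and at 3726, 5419 and 4791 CPM in the 3 organoid lines. The groups were apart by a log2 fold change of 2.48 (SE 0.34, edgeR's quasi-likelihood test, adjusted p = 0.000113). *Lcn2* was at 1135, 1051 and 187 CPM in tissue and 4144, 6639 and 5794 CPM in organoids, a log2 fold change of 2.80 (SE 0.49, adjusted p = 0.000626). *Sftpd* rose from 181, 146 and 53.8 CPM to 1139, 959 and 1239 CPM, a log2 fold change of 3.10 (SE 0.33, adjusted p = 1.58e-05). Oviduct tissue 3 was the lowest tissue for each of these genes and also for *Pglyrp1*, *Wfdc18* and *C3*.

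The rises of the remaining members were smaller. *Pglyrp1* went from 17.1 to 68.4 CPM in tissue to 92.0 to 184 CPM in organoids, a log2 fold change of 1.59 (SE 0.38, adjusted p = 0.00548). The complement gene *C3* went from 767 to 1455 CPM to 1957 to 2035 CPM (0.86, SE 0.21, adjusted p = 0.00495), and its regulator *Cfi* from 33.0 to 38.2 CPM to 93.1 to 134 CPM (1.57, SE 0.22, adjusted p = 0.000113). *Lbp* rose from 470 to 546 CPM to 636 to 1295 CPM (0.84, SE 0.22, adjusted p = 0.00908). Each of the 7 raised members had ranges apart in tissue and organoids, as 25.9% of all genes tested had in the same direction. *Slpi* fell: it had 22, 12 and 10 counts in the tissues and 1, 2 and 1 counts in the organoids, at least 7.41-fold lower (adjusted p = 9.08e-05).

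*Wfdc18* did not pass the test. Its levels of 2918, 2301 and 598 CPM in tissue and 1246, 1209 and 1417 CPM in organoids overlapped, with a log2 fold change of -0.59 (SE 0.40, adjusted p = 0.25), and it was called lower only without oviduct tissue 3 (-1.01, adjusted p = 0.00077). *Pigr* was too low to be tested, with 12, 4 and 1 counts in tissue and 6, 8 and 0 in organoids. When 1 shared spread was fitted over all 27 libraries, *Slpi* was the only member still called here, and the adjusted p of the 7 higher ones came to 0.101 to 0.597 at nearly the same fold changes.

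General epithelial markers moved in the same direction. Of 9 such markers 7 were higher in the organoids (median log2 fold change 1.12), their sum went from 1821 to 2264 CPM in tissue to 6115 to 8077 CPM in organoids, and 11 of 11 smooth muscle and fibroblast markers and 9 of 9 tested myeloid markers were lower. The oviduct's own secretory and ciliated markers went the other way from the general ones, 5 of 7 being lower in organoids (median log2 fold change -2.39), and their sum went from 73205 to 114825 CPM in tissue to 14891 to 23191 CPM. Set against the epithelial sum of the same library, a ratio added after the levels were seen, *Ltf* was at 19.8 to 50.8% in tissue and 59.3 to 70.6% in organoids, *Lcn2* at 10.3 to 50.1% and 67.8 to 86.5%, and *Sftpd* at 2.95 to 7.98% and 12.5 to 18.6%. On this ratio these 3 genes were higher in every organoid line than in any tissue. *Lbp* was at 20.94 to 30% in tissue and 8.29 to 21.2% in organoids and *Cfi* at 1.60 to 1.81% and 1.178 to 2.183%, both overlapping. *C3* was at 42.2 to 64.2% in tissue and at 25.2 to 32.6% in organoids. Although called higher in organoids by its counts, *C3* was thus lower on this ratio in every organoid line than in any tissue. The ratio counts RNA of a gene from any cell type, and the part of other cells in the tissue levels was not tested. *Pglyrp1* overlapped (0.940 to 3.05% and 1.51 to 2.28%). Neutrophil markers summed to 40.8 to 56.2 CPM in tissue and 13.4 to 51.6 CPM in organoids, and the receptor *Csf3r* was at 0 in both. Tissue RNA was extracted with Trizol and organoid RNA with columns, which cannot be told apart from the groups.

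Other defence genes mostly fell. Of 48 further secreted antimicrobial and mucosal genes, 7 were tested, and 2 rose, the protease inhibitor-like *Wfdc2* (log2 fold change 2.72, SE 0.25, adjusted p = 4.89e-06) and the cell surface mucin *Muc1* (1.73, SE 0.29, adjusted p = 0.000496). The other 5 fell, among them *Wfdc1* (at least 23.1-fold), the lysozyme *Lyz1* (at least 20.1-fold) and *Wfdc15b* (log2 fold change -4.76, SE 0.24, adjusted p = 7.6e-08). Of 13 further complement genes tested, 1 rose (*Clu*, log2 fold change 1.46, SE 0.37, adjusted p = 0.00709) and 9 fell, led by *Cfd* (factor D, at least 39.6-fold), the C1 inhibitor *Serping1* (-7.45, SE 0.30, adjusted p = 2.88e-08) and the protease *C1s1* (at least 22.2-fold). The medians of these lists were -4.76 and -3.85, against -0.02 over all genes tested.

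Among 20 tested genes of the NF-kB, interleukin and acute phase list, 8 rose and 2 fell, with a median of 0.40. The haptoglobin gene *Hp* rose by a log2 fold change of 3.30 (SE 0.24, adjusted p = 8.84e-07), the neutrophil attractant *Cxcl1* by 2.99 (SE 0.57, adjusted p = 0.00113) and the IL-1 antagonist *Il1rn* by 2.71 (SE 0.54, adjusted p = 0.0015). *Steap4*, a metalloreductase, fell by 3.71 (SE 0.52, adjusted p = 0.00012). Of the partners of the members, the transferrin receptor *Tfrc* (2.92, SE 0.35), the LPS co-receptor *Cd14* (2.65, SE 0.34) and its partner *Tlr4* (0.87, SE 0.29) rose, and the serum transferrin gene *Trf*, the scavenger receptor *Lrp1* and the adaptor *Myd88* fell. Estrogen response genes were split, 4 of 12 tested being higher and 4 lower, with *Padi2* (3.64, SE 0.33) and *Inhbb* (3.57, SE 0.27) among the higher and the estrogen receptor gene *Esr1* itself (-1.15, SE 0.21) among the lower. The organoid medium held added estrogen and WNT, which cannot be told apart from culture in this contrast.

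Among the members, unedited Cas9-GFP organoids and C57BL/6 organoids, both labelled as grown from oviduct, differed most at *Wfdc18* and *Pigr*. *Wfdc18* was at 1246, 1209 and 1417 CPM in the C57BL/6 lines and had 5, 3 and 0 counts in the Cas9-GFP lines, a log2 fold change of -8.64 (SE 0.40, edgeR, adjusted p = 1.06e-07). *Pigr* had 6, 8 and 0 counts in the C57BL/6 lines and was at 325, 945 and 388 CPM in the Cas9-GFP lines, a log2 fold change of 7.51 (SE 0.63, adjusted p = 1.11e-05). Every line of a group lay on the same side of the other group for both genes, and the exact folds rest on the few counts on the low side. In all, 4 of the 9 members tested were higher and 2 lower in Cas9-GFP organoids, where 13.0% and 13.3% of 8323 genes tested were.

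The complement genes moved apart. *C3* was at 1995, 1957 and 2035 CPM in the C57BL/6 lines and at 4081, 8289 and 3757 CPM in the Cas9-GFP lines (log2 fold change 1.44, SE 0.27, adjusted p = 0.00234). *Cfi*, whose product cuts active C3, was lower in the Cas9-GFP lines, at 60.2, 55.3 and 33.2 CPM against 134, 93.1 and 95.1 CPM (-1.11, SE 0.26, adjusted p = 0.00778). *Pglyrp1* (246 to 342 CPM against 92.0 to 184 CPM, log2 fold change 1.11, SE 0.25, adjusted p = 0.0072) and *Lcn2* (8986 to 13329 CPM against 4144 to 6639 CPM, 0.95, SE 0.23, adjusted p = 0.00914) were higher in the Cas9-GFP lines. *Ltf* (-0.26, SE 0.24, adjusted p = 0.464), *Sftpd* (-0.41, SE 0.20, adjusted p = 0.156) and *Lbp* (0.34, SE 0.23, adjusted p = 0.308) overlapped between the strains. With a shared spread over all libraries, only *Wfdc18* and *Pigr* were called.

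**Figure D2:**
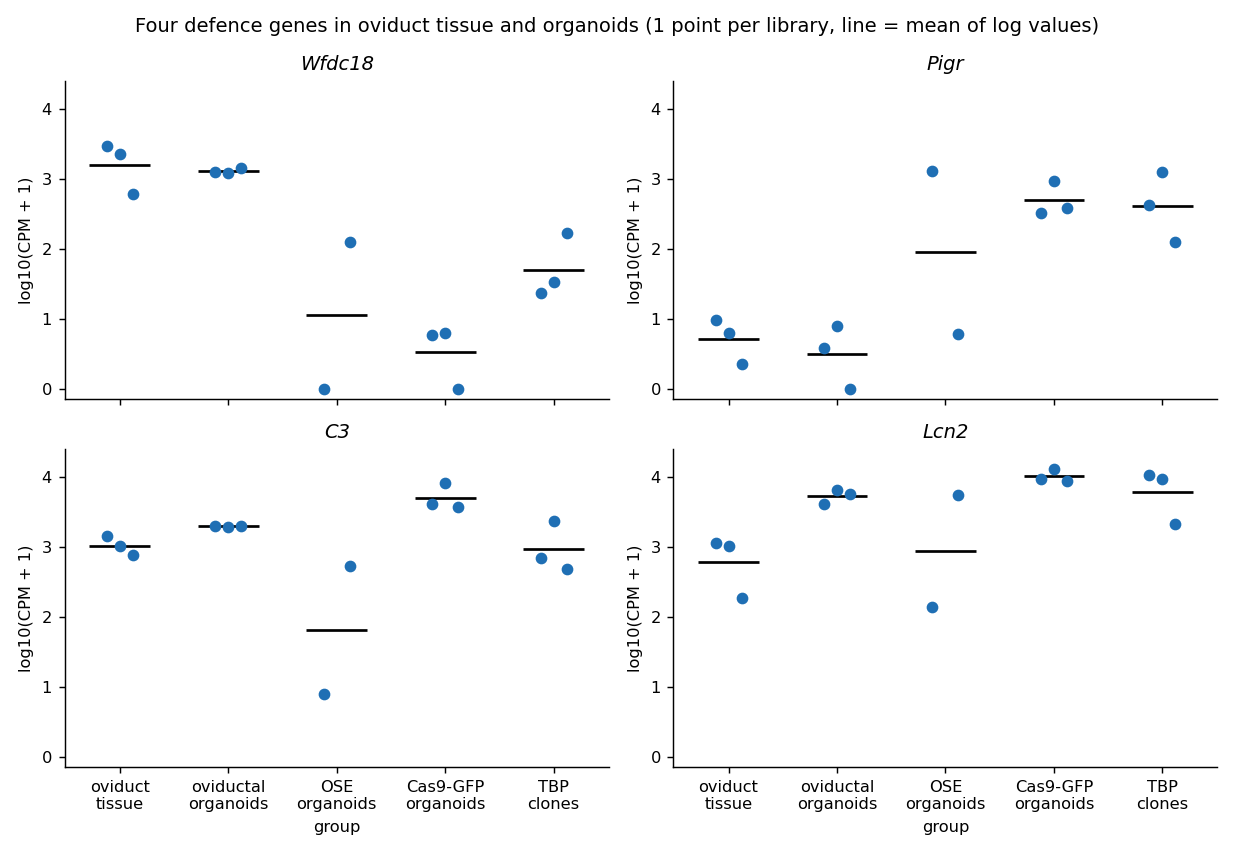
*Wfdc18*, *Pigr*, *C3* and *Lcn2* as log10(CPM + 1) in 5 groups, with a point per library and a line at the mean of the log values. *Wfdc18* and *Pigr* swap sides between C57BL/6 oviductal and Cas9-GFP organoids, and the 2 OSE organoid lines lie far apart for all 4 genes.

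Other genes moved with this contrast. The 7 oviduct secretory and ciliated markers summed to 14891 to 23191 CPM in the C57BL/6 lines and to 238 to 286 CPM in the Cas9-GFP lines, of which *Ovgp1* made up most in the former, and 5 of 9 epithelial markers were lower in the latter (median log2 fold change -0.57). Myeloid markers rose, 2 of 2 tested (median 3.44), with *Csf1r* at 16.0 to 29.4 CPM against 0.954 to 1.69 CPM, as did the 1 neutrophil marker tested (2.77), while *Csf3r*, *S100a8*, *Ngp* and *Camp* had no count in either group. The part of these markers in the differences was not tested. The number of NF-kB, interleukin and acute phase genes higher in Cas9-GFP organoids was 8 of 22 tested, with *Cxcl5* (3.55, SE 0.68, adjusted p = 0.00262), *Tnf* (3.00, SE 0.50, adjusted p = 0.00115) and *Lrg1* (2.86, SE 0.51, adjusted p = 0.00169) leading, and 3 were lower, the C/EBP factor gene *Cebpd* (-1.34, SE 0.29), the NF-kB inhibitor gene *Nfkbia* (-0.99, SE 0.20) and *Cxcl1* (-1.94, SE 0.53). The clusterin gene *Clu* was higher as well (1.48, SE 0.31, adjusted p = 0.00446). The estrogen response gene *Greb1* was lower (-3.49, SE 0.45, adjusted p = 0.000237), while *Padi2*, *Wnt4* and *Sprr2g* of the same list were higher, 4 of 11 tested in all being higher and 1 lower. With *Ovgp1* under 100 CPM in them, the Cas9-GFP lines also lacked the level of this oviduct marker seen in the C57BL/6 lines. The strain, the transgene and any difference in derivation or origin of the lines cannot be told apart here.

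TBP clones differed from the Cas9-GFP organoids of their own background at 0.817% of 7708 genes tested, and 1 of 9 tested members was called, as higher, where 0.389% of all genes were. *Wfdc18* was at 22.4, 32.1 and 165 CPM in clones 1, 2 and 3 (2, 60 and 722 counts) against 0 to 5.18 CPM in the Cas9-GFP lines, a log2 fold change of 4.72 (SE 0.85, edgeR, adjusted p = 0.0266). This call was lost in DESeq2 (4.48, adjusted p = 0.057), in the fit with a shared spread (adjusted p = 0.18) and without any 1 Cas9-GFP line or without clone 3 (adjusted p = 0.0538 to 0.176). Clone 3 was highest for *Wfdc18* and lowest of the clones for 7 other members.

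The other members were not called. *C3* was at 704, 2376 and 492 CPM in the clones, below the 3757 to 8289 CPM of the Cas9-GFP lines (log2 fold change -2.15, SE 0.58, adjusted p = 0.147), and was called lower by DESeq2 (adjusted p = 0.00564), without clone 2 (adjusted p = 0.0124) and without the filter on low counts (adjusted p = 8.11e-05). *Ltf* (473 to 1958 CPM, -1.40, SE 0.52, adjusted p = 0.355) and *Sftpd* (268 to 440 CPM, -1.21, SE 0.35, adjusted p = 0.184) also lay below the ranges of the Cas9-GFP lines without passing the test. So did *Lbp* (138 to 1039 CPM, -1.01, adjusted p = 0.617) and *Cfi* (6.16 to 31.6 CPM, -1.43, adjusted p = 0.426), the latter being called lower without clone 2 (adjusted p = 0.0423). *Pglyrp1* was at 1821, 576 and 171 CPM (1.53, SE 0.66, adjusted p = 0.457), and its fold change was 0.25 without clone 1. *Pigr* was at 425, 1264 and 124 CPM and overlapped the Cas9-GFP lines (0.16, SE 0.66, adjusted p = 0.965), so that the high *Pigr* of Cas9-GFP organoids was seen in clones as well. In the lists, 1 gene of NF-kB and acute phase response, *Lrg1*, was lower (-3.27, SE 0.53, adjusted p = 0.0159) and 1 estrogen response gene, *Sprr2f*, was higher (3.32, SE 0.57, adjusted p = 0.0227).

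Tumors grown from TBP clones fell into a wide range for most of the 10 genes, and tumors 1 and 3 were the highest 2 of the 6 for 9 of them. *Lcn2* was at 5234, 49.8, 11685, 464, 21.6 and 76.1 CPM in tumors 1 to 6, a ratio of 540 between the highest and the lowest. *Ltf* was at 1145, 7.87, 2721, 85.2, 0.323 and 14.1 CPM, with a single count in tumor 5 against 8033 in tumor 3. *Pigr* was at 122, 0.874, 527, 23.7, 0 and 5.52 CPM. The same 2 tumors held most of the *C3* (1065 and 2173 CPM against 81.6 to 175 CPM in the rest), *Sftpd* (133 and 259 CPM against 0.323 to 5.68 CPM), *Cfi* (51.9 and 112 CPM against 0.614 to 2.84 CPM) and *Pglyrp1* (88.4 and 66.7 CPM against 0 to 2.84 CPM). *Slpi* was the exception, at 14.2, 0.874, 25.8, 10.4, 23.2 and 17.8 CPM, with tumor 5 nearly at the level of tumor 3.

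Markers of several cell types varied with these levels. The 9 epithelial markers summed to 2603 and 3402 CPM in tumors 1 and 3 and to 200 to 482 CPM in the other 4, and *Epcam* was at 199 and 366 CPM against 0 to 13.3 CPM. Neutrophil markers, of which 12 of 15 were in the table, summed to 906 and 1540 CPM in tumors 1 and 3, to 458 CPM in tumor 4 and to 15.8 to 50.7 CPM in tumors 2, 5 and 6. *S100a8* (604 CPM) and *S100a9* (785 CPM) made up most of the neutrophil sum in tumor 3, *Csf3r* and *Cxcr2* were at 59.0 and 66.6 CPM in tumor 1 and at 20.3 and 36.6 CPM in tumor 3, and the granule genes *Elane* and *Mpo* had at most 2 counts in any tumor. *Ngp* and *Camp*, of the same list, were highest in tumor 3, with 17 and 4 counts. Myeloid markers, at 1175 to 5021 CPM, were lowest in tumor 3. Hepatocyte markers summed to 392 CPM in tumor 1 and to 93.9 CPM in tumor 6, against 0 to 15.6 CPM in the other 4, and the liver is a known source of C3, Cfi and Lbp. Relative to the epithelial sum of the same tumor, *C3* ranged only from 16.9 to 65.4%, while *Ltf* ranged from 0.0824% in tumor 5 to 80.0% in tumor 3 and *Lcn2* from 5.52% to 344%, with tumors 1, 3 and 4 above tumors 2, 5 and 6 for both. The part of these cell types in the tumor levels was not tested.

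**Figure D3:**
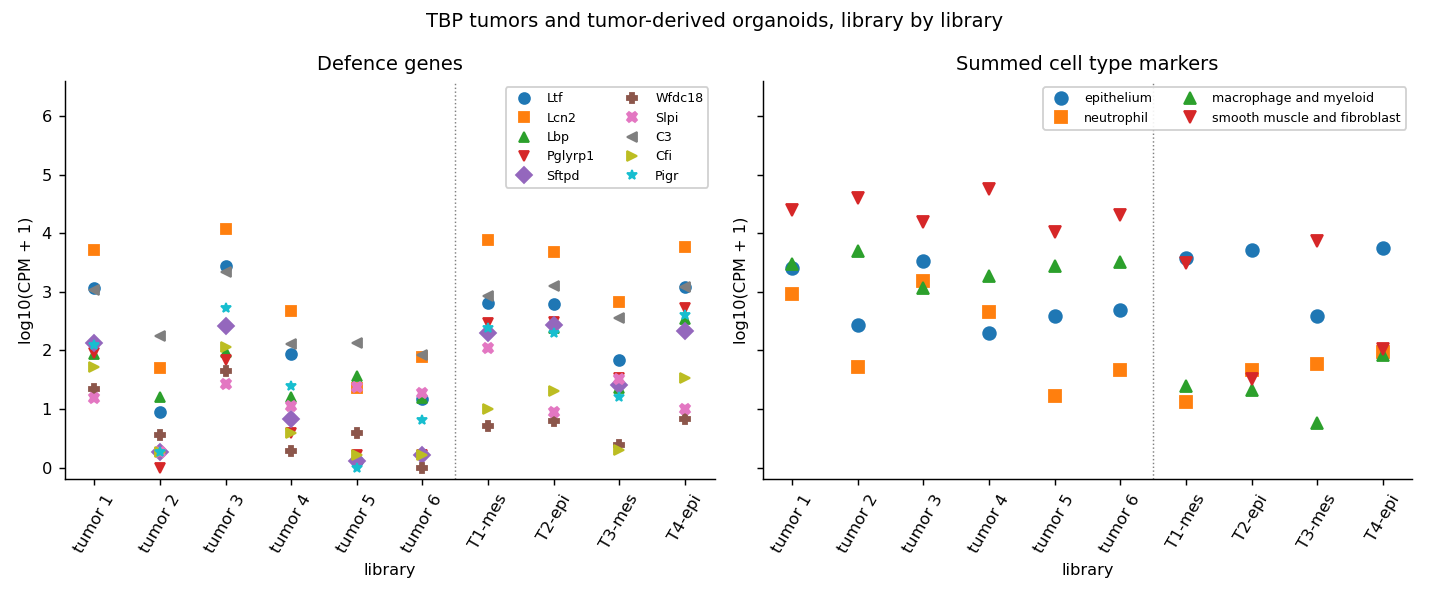
The 10 genes (left) and summed cell type markers (right) as log10(CPM + 1) in the 6 TBP tumors and, right of the dotted line, the 4 tumor-derived organoid lines. Tumors 1 and 3 are high for most of the genes and for epithelial and neutrophil sums, and T3-mes is the organoid line with the lowest epithelial sum (389 CPM).

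Against the TBP clones, 10 members passed the filter, and 2 were lower and 1 was higher in tumors, where 11.7% of 10473 genes were called lower and 20.1% higher. *Lbp* was at 14.7 to 91.8 CPM in the 6 tumors (median 25.3 CPM) and at 1039, 528 and 138 CPM in the clones, a log2 fold change of -3.63 (SE 0.72, adjusted p = 0.0035) with no overlap. *Pglyrp1* was at 0 to 88.4 CPM in tumors against 1821, 576 and 171 CPM (-4.89, SE 1.41, adjusted p = 0.0215), a call lost without clone 1 (-3.80, adjusted p = 0.0762). *Slpi* had 0, 3 and 2 counts in the clones and 1 to 76 counts in the tumors, at least 1.29-fold higher with the depth of clone 1 included (fitted log2 fold change 4.06, SE 1.02, adjusted p = 0.0113), a call lost without clone 3 (adjusted p = 0.0901). *Ltf*, *Lcn2*, *C3*, *Cfi* and *Pigr* overlapped between tumors and clones and were not called, with standard errors up to 1.66 on the log2 scale. *Sftpd* lay below the clones in every tumor and was not called either (-2.38, SE 1.43, adjusted p = 0.226). Tumor 3 weighed on several of these values: without it *Pigr* (-4.33, adjusted p = 0.0338) and *Wfdc18* (-3.85, adjusted p = 0.0119) were also called lower.

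Host-cell markers rose in the same contrast, 11 of 12 myeloid markers and 10 of 10 tested smooth muscle and fibroblast markers being higher in tumors, while 2 of 9 epithelial markers were lower (median -2.33). Further antimicrobial genes rose, 7 of 13 tested with none called lower, and those named by size were genes of myeloid cells: *Lyz1* (at least 79.1-fold), *S100a9* (at least 21-fold) and *S100a8* (at least 15.7-fold). Of 17 further complement genes tested, 10 rose, led by the receptors *C3ar1* (adjusted p = 0.00023, at 0 in every clone) and *C5ar1* (at least 1.88-fold) and by *Cfd* (at least 6.71-fold). The genes for receptors of complement fragments were thus higher in tumors than in clones, whereas *C3* itself was not called (-0.94, adjusted p = 0.506). *Il1b* (at least 7.69-fold), *Saa3* (5.45, SE 1.55, adjusted p = 0.0205) and *Steap4* (5.28, SE 1.38, adjusted p = 0.0141) led the 12 of 32 tested NF-kB and acute phase genes that rose, and *Il1a* fell (-3.02, SE 0.61, adjusted p = 0.00382). Tumor RNA was extracted with Trizol and clone RNA with columns, as for tissue and organoids above.

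Against oviduct tissue, which like the tumors holds stroma and was extracted the same way, edgeR called 2 of the 10 members tested lower in tumors, and DESeq2 and the fit of all libraries called the same number. No further member had an unadjusted p under 0.05. Of 10827 genes tested, 22.4% were lower and 23.7% higher. *Wfdc18* was at 20.8, 2.62, 44.4, 0.946, 2.91 and 0 CPM in tumors 1 to 6 against 2918, 2301 and 598 CPM in tissue (log2 fold change -7.26, SE 1.16, adjusted p = 0.000751). *Lbp* was at 86.3, 14.9, 91.8, 15.1, 35.5 and 14.7 CPM against 512, 470 and 546 CPM (-3.57, SE 0.60, adjusted p = 0.00101). Both kept tumors and tissue fully apart, and both calls held without any 1 library. In the same contrast 7 of 7 oviduct secretory and ciliated markers were lower (median log2 fold change -6.36), the general epithelial markers had a median of -1.11 and 12 of 12 myeloid markers were higher, and their part in these falls was not tested. *Pigr* had a log2 fold change of 4.37 (SE 2.18, adjusted p = 0.125), and *Slpi*, at 0.07 (SE 0.62, adjusted p = 0.931), overlapped. Of 30 tested NF-kB and acute phase genes, 20 rose, among them *Cxcl5* (8.23, SE 2.66, adjusted p = 0.0279) and *Il1b* (at least 28.1-fold), and the estrogen receptor gene *Esr1* (-2.85, SE 0.66, adjusted p = 0.00568) and its target *Pgr* (-6.49, SE 0.82, adjusted p = 0.000189) were among 5 of 15 tested estrogen response genes that fell.

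Mes-like and epi-like tumor organoids differed at 1.13% of 9775 genes, and edgeR called 0 of the 10 members, of which *Slpi* and *Cfi* had an unadjusted p under 0.05. *Slpi* had 111 CPM in T1-mes, 32.0 CPM in T3-mes, 8.07 CPM in T2-epi and 9.22 CPM in T4-epi, a log2 fold change of 3.04 (SE 0.68, adjusted p = 0.114 from edgeR). DESeq2 (adjusted p = 0.00377), the fit of all libraries (adjusted p = 0.0455) and both fits that left out a mes line called it higher, while the fits that left out an epi line did not (adjusted p = 0.494 and 0.591). *Cfi* was at 9.11 and 0.970 CPM in the mes lines and 19.5 and 33.5 CPM in the epi lines (-2.37, SE 0.90, adjusted p = 0.318).

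The 2 mes lines were not alike. T3-mes was lowest of the 4 lines for every member but *Slpi*, with *Lcn2* at 682 CPM against 4817 to 7583 CPM, *Ltf* at 67.9 CPM against 625.4 to 1203 CPM and *Lbp* at 21.8 CPM against 226 to 343 CPM. It also had an epithelial sum of 389 CPM against 3807 CPM in T1-mes and 5131 and 5636 CPM in the epi lines, and smooth muscle and fibroblast markers of 7536 CPM, against 3126 CPM in T1-mes and at most 104 CPM in the epi lines. Relative to the epithelial sum, *Ltf* was at 16.8 and 17.5% in the mes lines and at 12.2 and 21.3% in the epi lines, and *Lbp* at 5.61 to 5.92% and 4.73 to 6.08%, so that for these genes the mes lines fell within the range of the epi lines. *Slpi* was at 2.92 and 8.23% in the mes lines and at 0.157 and 0.164% in the epi lines on the same ratio. Since *Slpi* was higher and the epithelial sum lower in both mes lines, the ratio could only widen this gap. *Lcn2*, whose CPM overlapped, was at 175 and 199% in the mes lines and 93.9 and 104% in the epi lines, and *Cfi* stayed lower in the mes lines, at 0.239 and 0.249% against 0.380 and 0.594%. Without T1-mes, when T3-mes stood alone with a spread taken from the epi lines, 9 members were called, *Slpi* as higher and 8 as lower.

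**Figure D4:**
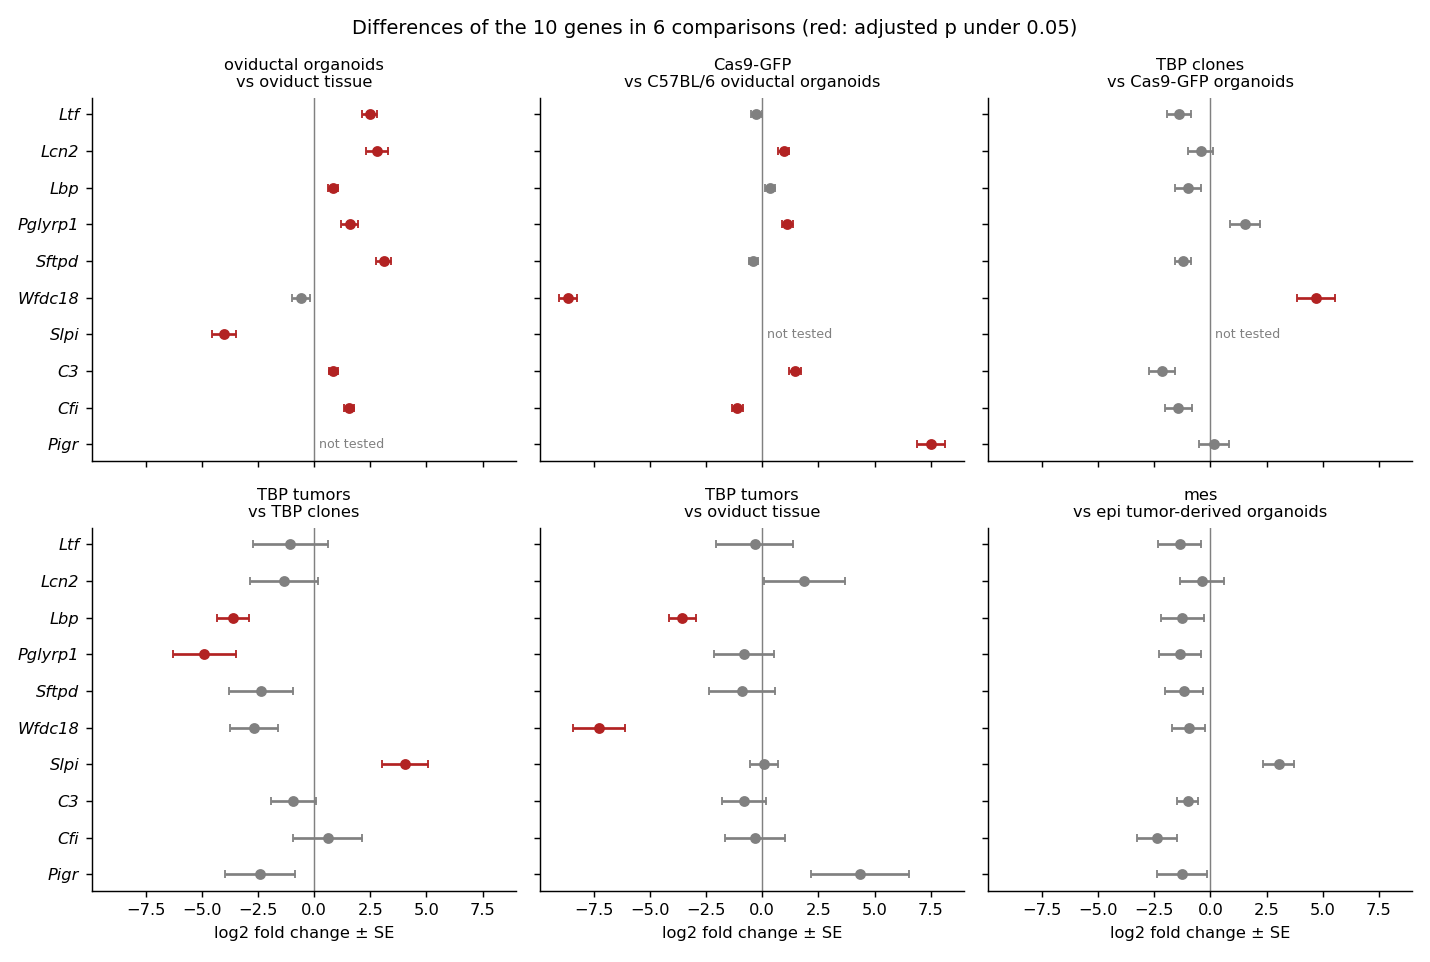
Log2 fold changes with standard errors (edgeR) of the 10 genes in the 6 tested comparisons, the first-named group against the second, with an adjusted p under 0.05 in red. Members lie mostly to the right in oviductal organoids against tissue, *Wfdc18* and *Pigr* are farthest from 0 in Cas9-GFP against C57BL/6 organoids, and the bars are widest in the comparisons with tumors.

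Comparisons that share libraries (oviduct tissue, C57BL/6 organoids, Cas9-GFP organoids, clones or tumors) were not set against each other by overlap or correlation. Across the 9 group means of log2 CPM, which share libraries and depth, the gene of 8693 whose pattern was most like *Ltf* was *Sftpd* (Pearson's r = 0.989, n = 9 groups), and *Ltf* was in turn the gene most like *Sftpd*. The groups include OSE tissue and OSE organoids, on whose levels the members were partly chosen, so part of this likeness and of the others was set by that choice. For *Lcn2* these were *Camk2b* and *Celf2* (both r = 0.973), for *Pglyrp1* *Vldlr* (0.975), for *Lbp* *Fuom* and *Plekhs1* (0.982), and for *Pigr* *Kbtbd11* (0.964). *Wfdc18* was most like *Lipf* (0.928), *Meig1* (0.922) and *Dynlrb2* (0.915), and *Slpi* most like *Ndufa4l2* (0.943). Within the members, *Lbp* and *Ltf* (0.96) and *C3* and *Cfi* (0.85) had high values as well, whereas *Wfdc18* and *Pigr* had -0.37 and *Slpi* had values of -0.43 to 0.06 with the other 9.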

How the data were processed

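Per the labels and the study's methods, total RNA was turned into CEL-Seq2 libraries, which tag the 3′ end of transcripts. The authors aligned reads with BWA to GRCm38 and deposited raw counts of reads per gene, without correction by molecular identifiers, so that amplified copies count as reads and low genes are less precise than counting error alone. The submitters' processing notes also name DESeq2 1.18.0. Each of the 27 columns was assigned to its group by name, as the labels describe several libraries within a sample. A spike-in entry (1 count) was left out. Tissue, clones, organoid lines and tumors are labelled as biologically independent replicates, and the organoid lines were derived from pooled mice. For tissue and unedited organoids, p-values thus describe the spread between samples or lines. The paper, however, reports fewer independent clones per combination of mutations than there are clone libraries here. It also traces the tumor-derived lines to the same original TBP clone. P-values with clones, tumors or tumor-derived lines may therefore describe spread within a few clones. No replicates were copies of the same counts (chi-square over genes per pair at least 2.53 per gene). Since amplified copies count as reads, this value cannot tell technical from biological replicates.

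Counts were tested with edgeR 4.0.16 in R 4.3.3 (quasi-likelihood test, TMM factors, filterByExpr on the libraries compared, Benjamini-Hochberg adjusted p under 0.05 over all genes tested), with standard errors derived from the F statistic. Each fit held the libraries of the groups compared. The statistics were tested on simulated counts first. A fold against a group at or below 3 counts per library is given as a bound. Tables were handled with pandas 2.3.3 and plots drawn with matplotlib 3.10.9. DESeq2 1.42.0, RLE factors, no filter, a replicate block, 1 fit of all libraries and leaving out each library were the alternatives. All members were named, and from each further list at most 3 called genes per direction and comparison, by size of the fold change, with a mean of at least 10 normalized counts. Members and lists were chosen with earlier results of these data known.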

Additional observations from a re-analysis of the deposited data

Results flagged for a closer look

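*Pigr* in TBP tumors was flagged because tumor 3, at 527.1 CPM, lay far from the other 5 tumors (0 to 122 CPM). Its gap to tumor 1 was 0.768 of the range of the group, above Dixon's critical value of 0.625 for 6 samples. In this way 20 sets of values were examined, and for normally distributed values chance flags about 1 in 20. The CPM were not transformed and were unevenly spread in the tumors, so this rate need not hold here. Tumor 3 also had the highest *Ltf*, *Sftpd*, *Lcn2*, *Slpi*, *Wfdc18*, *Lbp*, *C3* and *Cfi* of the 6 tumors, the highest epithelial marker sum (3402 CPM) and the highest neutrophil marker sum (1540 CPM), and their part in its *Pigr* level was not tested.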

How the results depend on the processing

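Of 645 values of members under alternatives, 590 kept their direction and their side of the threshold, 19 lost a call, 25 gained one and 11 changed sign. One fit of all libraries called 1 member in oviductal organoids against tissue, 2 members and 1114 genes in Cas9-GFP against C57BL/6 organoids, 0 members in TBP clones against Cas9-GFP organoids (where 32.9% of calls were higher, against 47.6%), 5251 genes in tumors against clones, and 1 member and 555 genes in mes against epi organoids. DESeq2 called 115 genes in clones against Cas9-GFP organoids, and 507 genes and 1 member in mes against epi organoids. Without the filter on low counts, 372 genes and 4 members were called in the former and 283 genes in the latter (main counts 63 and 110).

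Same-numbered libraries were not treated as pairs in the main fits. Their deviations correlated weakly, at 0.0288 to 0.125, yet every library of the first group correlated best with its own number. What same-numbered libraries share was not tested. A replicate block gave 4004 genes in oviductal organoids against tissue, 2212 in Cas9-GFP against C57BL/6 organoids, 95 with 2 members in clones against Cas9-GFP organoids, and 240 in mes against epi organoids paired as the labels group them. In clones, the block also turned *Pigr* to -0.24 and called *C3* lower (-2.39, adjusted p = 0.00734).

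Leaving out each library in turn gave 3257 to 4497 genes and 8 to 9 members in oviductal organoids against tissue, 1450 to 2332 genes and 6 to 7 members in Cas9-GFP against C57BL/6 organoids, 3 to 208 genes and 0 to 3 members in clones against Cas9-GFP organoids, 2331 to 3877 genes and 2 to 5 members in tumors against clones, 3614 to 4919 genes and 2 members throughout in tumors against oviduct tissue, and 0 to 1458 genes and 0 to 9 members in mes against epi organoids. The fewest genes in clones came without Cas9-GFP organoids 1 and the most without clone 2. The fewest in mes against epi organoids came without T2-epi and the most without T1-mes, where a lone line is assumed to vary like the other group. Log2 fold changes that crossed 0 in this way ran from -1.08 to 0.75 for *Pigr* in clones, from -1.95 to 0.15 for *C3* and from -0.73 to 1.79 for *Cfi* (-0.004 without clone 3) in tumors against clones, from -0.14 to 0.3 for *Slpi* in tumors against oviduct tissue, from -2.99 to 0.5 for *Lcn2* in mes against epi organoids, and from -4.18 to 2.16 for *C3* in OSE organoids against tissue. *Lcn2* there came to 5.88 without OSE organoids 2. The cause of these shifts was not tested. The depth of TBP clone 1 limits what clones can show for low genes such as *Slpi*, *Cfi* and *Wfdc18*.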
